A study of Mus musculus with 12 samples.

Results

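Members of the muscle atrophy programme, 10 genes in all, were followed in mouse gastrocnemius muscle: the ubiquitin ligase genes Fbxo32, Trim63, Fbxo30, Fbxo31, Fbxo21 and Cblb, the transcription factor genes Foxo1, Foxo3 and Foxo4, and Mstn. They were taken by symbol from the authors' TPM table (a level scaled to transcript length and to the library's total), which lists 10475 genes, and all 10 were found there. Poly(A) RNA was sequenced from 12 libraries, 3 in each of 4 groups. The TG groups were transgenic mice that overexpress E4BP4 (the protein of Nfil3) in the liver only, and the WT groups were wild type mice. Each genotype was taken at ZT12, the hour at which the lights go off, and at ZT0, the hour at which they come on. All groups were C57BL/6 mice of 8 weeks, fed chow at will in a cycle of 12 h light and 12 h dark. The promoter that drives the transgene and the sex of the mice are not given in the sources used here, and the sources do not say whether each library came from a separate animal, so p-values measure the spread between these libraries.

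Skeletal muscle loses mass when protein breakdown by the proteasome and by autophagy outpaces synthesis. FoxO transcription factors, held in the cytoplasm by Akt when insulin or IGF1 signals, enter the nucleus when that signal falls and switch on ubiquitin ligases, above all Fbxo32 (atrogin-1, or MAFbx) and Trim63 (MuRF1). Myostatin, a growth factor of the TGF-beta family secreted by muscle, limits fibre size through activin type II receptors and Smad2 and Smad3.

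In units of 1e+06, the reads recovered on the listed genes of a library ranged from 13.1 to 15.8 in TG ZT12, from 17.7 to 20.2 in WT ZT12, from 10.4 to 11.5 in TG ZT0, and from 9.21 to 13.1 in WT ZT0. This depth moved with time, and at ZT12 with genotype. Reads on genes that are not listed do not enter it. The summed level of 8 skeletal muscle fibre markers lay between 84735 and 100139 TPM in every library, and all 8 were listed. The 4 slow fibre markers, all listed, varied more, from 56.0 TPM in WT ZT0 replicate 3 to 428 TPM in WT ZT12 replicate 3. A pair of libraries stood apart. TG ZT12 replicate 1 had the lowest median TPM of the 12 (4.96) and was the lowest library for 6 of the 10 genes, and WT ZT0 replicate 2 had the highest median TPM (9.26) and was the highest library for 6 of the 10. Cd74, a gene of antigen-presenting cells and the one lymphocyte marker of 5 that the table lists, stood at 739 TPM in WT ZT0 replicate 2, against 29.8 to 83.5 TPM in the other libraries. Nfil3 itself averaged 13.5 ± 6.65 TPM in TG ZT12 muscle and 11.8 ± 3.79 TPM in WT ZT12 muscle, and 16.0 ± 3.72 TPM in TG ZT0 muscle and 17.2 ± 1.42 TPM in WT ZT0 muscle (SD, n = 3 each). The transgene is a liver transgene, so these levels do not check the genotype labels.

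The sequence just before the transcription start was looked up because the ligases are textbook targets of the FoxO factors. RefSeq promoters (build GRCm38.p6) were matched for 8 of the 10 genes, Fbxo32 and Foxo4 apart. For Fbxo30 and Foxo3 the RefSeq start is not that of the transcript the authors measured. The 250 bases for Fbxo30 (chr10:11281337-11281586, plus strand) lie past the authors' start at 11281330. Those for Foxo3 (chr10:42276696-42276945, minus strand) overlap the authors' transcript, which starts at 42276742. In the window from 250 bases before to 50 bases after the start, on both strands, the FoxO motif GTAAACA was found in 1 of the 8, that of Trim63, and in 3.65% of 32851 promoters of the same length. The consensus glucocorticoid receptor element was also found in 1 of the 8, again that of Trim63, and in 0.475% of all promoters. The D-box TTANGTAA that E4BP4 binds (2.32% of all promoters), the E-box CACGTG of the clock (7.15%) and the ROR element (0.219%) were in none of the 8 windows. The 250 bases before the start of Trim63 (chr4:134314870-134315119, plus strand) are shown with both matches in capitals, beside those of Foxo1 (chr3:52268087-52268336, plus strand) and Mstn (chr1:53061390-53061639, plus strand), a FoxO factor and the secreted member, which hold none of the 5 motifs.
Trim63: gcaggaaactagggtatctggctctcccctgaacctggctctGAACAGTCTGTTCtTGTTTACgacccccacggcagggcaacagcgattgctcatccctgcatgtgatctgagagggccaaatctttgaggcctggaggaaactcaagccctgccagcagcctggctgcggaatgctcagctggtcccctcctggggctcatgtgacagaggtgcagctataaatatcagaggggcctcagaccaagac
Foxo1: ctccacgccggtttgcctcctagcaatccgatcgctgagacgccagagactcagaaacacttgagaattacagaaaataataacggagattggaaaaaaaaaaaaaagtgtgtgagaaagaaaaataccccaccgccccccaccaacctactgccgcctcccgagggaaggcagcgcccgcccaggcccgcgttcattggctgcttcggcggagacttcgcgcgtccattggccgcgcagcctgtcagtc
Mstn: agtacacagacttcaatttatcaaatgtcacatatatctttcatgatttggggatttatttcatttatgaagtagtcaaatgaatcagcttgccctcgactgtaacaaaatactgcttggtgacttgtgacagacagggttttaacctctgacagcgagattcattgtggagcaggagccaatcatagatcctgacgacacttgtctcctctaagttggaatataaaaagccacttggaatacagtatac
In Trim63 the glucocorticoid receptor match begins at base -208 on the plus strand, and the FoxO match, which reads GTAAACA on the minus strand, begins at base -194, so that 1 base separates the 2 motifs. A match is a run of letters and not a measured binding site.

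By level, averaged over the 12 libraries, Trim63 was the highest of the 10 genes at 122 TPM, rank 363 of the 10475 listed genes. Foxo4 followed at 57.3 TPM, Fbxo31 at 41.8, Fbxo32 at 32.7 and Mstn at 27.7 TPM. Foxo1 averaged 5.09 TPM, Foxo3 3.42, Fbxo21 3.40, Fbxo30 3.10 and Cblb 2.41 TPM. TPM is a level per transcript length, so these genes may be set side by side. Between neighbours in this order the 12 libraries were fully apart for Trim63 over Foxo4 and for Mstn over Foxo1, and overlapped for the other 7 pairs. Foxo4 was above Fbxo31 in 12 of 12 libraries and Foxo1 above Foxo3 in 12 of 12, although their ranges overlapped. Fbxo31 was above Fbxo32 in 8 of 12 libraries, Fbxo32 above Mstn in 6 of 12, and Foxo3 above Fbxo21 in 4 of 12. Of the FoxO factors, Foxo4 was thus the most abundant transcript in this muscle in every library. Relative to its mean, Trim63 varied least over the 12 libraries (coefficient of variation 11.6%), and Foxo3 (57.7%) and Foxo1 (55.4%) varied most.

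**Figure D1:**
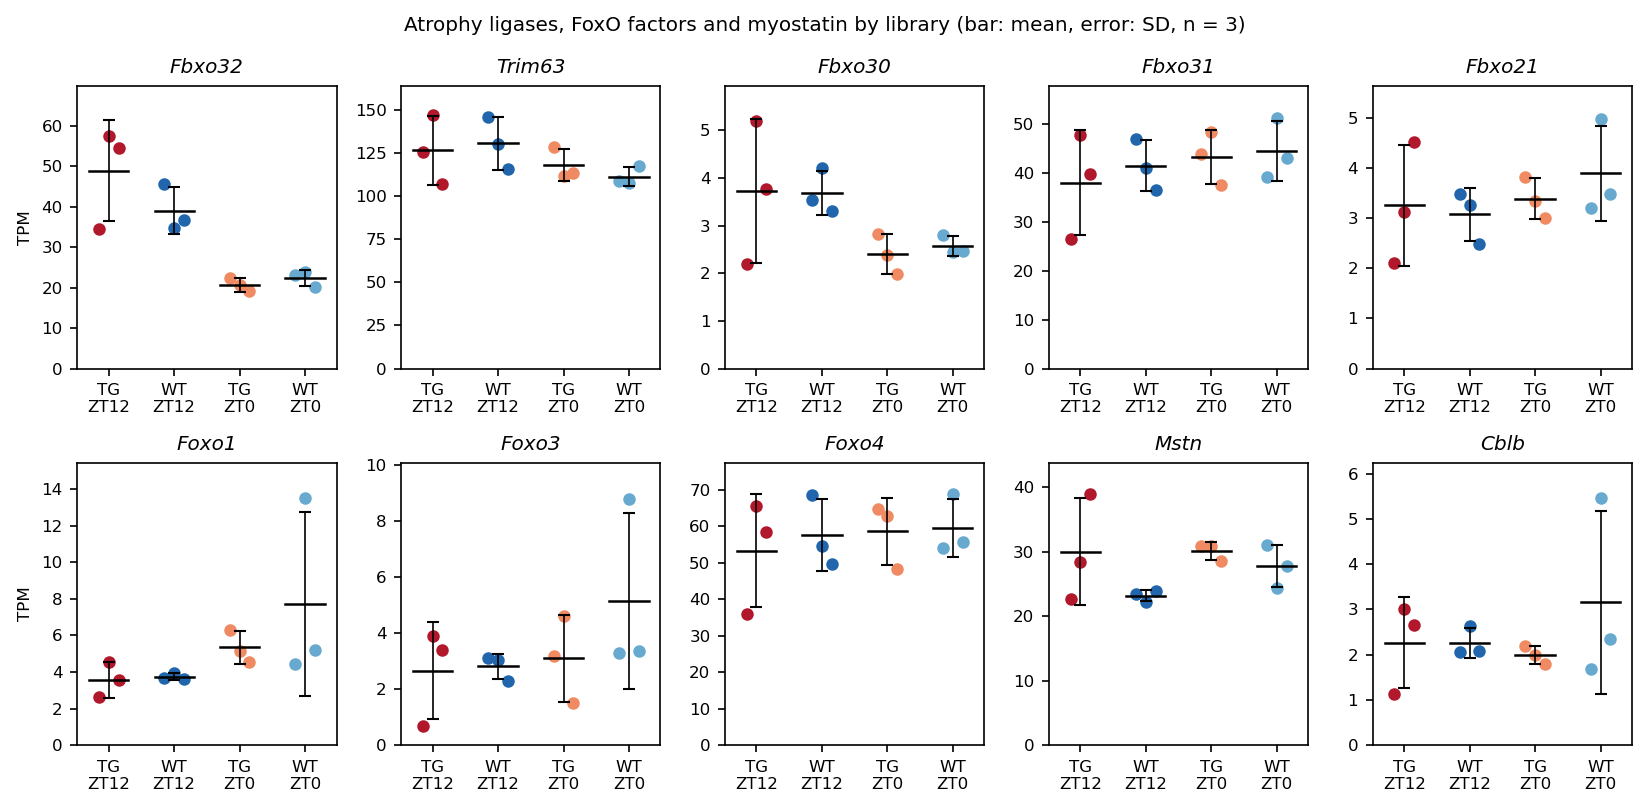
TPM (vertical axes, each from 0) of the 10 genes in each library, with groups in the order TG ZT12, WT ZT12, TG ZT0 and WT ZT0. Points are libraries, bars are means and error bars SD (n = 3 each). Fbxo32 lies between 34.5 and 57.5 TPM in the ZT12 libraries and between 19.1 and 23.9 TPM in the ZT0 libraries, while for Foxo1, Foxo3 and Cblb the spread in WT ZT0 comes from 1 high library, replicate 2.

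Fbxo32 (chromosome 15, 58175879 to 58214892, minus strand; positions on mm10 as the authors' tables give them) encodes the F-box subunit of an SCF ubiquitin ligase that marks muscle proteins for the proteasome. It was the one gene of the 10 that changed past the threshold, and it changed with time of day. It stood at 34.5, 57.5 and 54.5 TPM in TG ZT12 and at 45.6, 34.7 and 36.6 TPM in WT ZT12. At ZT0 it stood at 22.4, 20.5 and 19.1 TPM in TG and at 23.2, 23.9 and 20.2 TPM in WT. All 6 ZT12 libraries were above all 6 ZT0 libraries, in TG and in WT alike. Of all genes tested, 0.538% had all ZT12 libraries above all ZT0 libraries. Counting error is small beside this difference, since Fbxo32 had 1734 to 7456 recovered reads per library.

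The mean level of Fbxo32 was 48.8 ± 12.5 TPM in TG ZT12 and 20.7 ± 1.68 TPM in TG ZT0, and 39.0 ± 5.82 TPM in WT ZT12 and 22.4 ± 1.98 TPM in WT ZT0 (SD, n = 3 each). Fits were made with limma on log2(TPM + 1) over 10415 genes, with Benjamini-Hochberg adjustment over all of them. With additive terms for genotype and time, Fbxo32 was 0.97 ± 0.13 higher (log2, SE) at ZT12 than at ZT0, a 1.96-fold difference on that scale (95% interval 1.60 to 2.39) (adjusted p = 0.00263). It was the only 1 of the 10 members called in that comparison, in which 1.02% of all genes were called in either direction. In bulk muscle, fewer cells of a type and less RNA per cell cannot be told apart.

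Taken within each genotype, the ZT12 minus ZT0 difference of Fbxo32 was 1.17 ± 0.18 (log2, SE) in TG (limma adjusted p = 0.0212, a comparison in which 0.154% of all genes were called). In WT it was 0.76 ± 0.18 and did not pass (limma adjusted p = 0.187, with 0.115% of all genes called). The genotypes were not shown to differ in this: the interaction was 0.41 ± 0.25 (95% interval -0.15 to 0.96, limma adjusted p = 1.00), and 0.63 without TG ZT12 replicate 1 (95% interval 0.25 to 1.02, limma adjusted p = 0.862). The WT difference passed under each of 3 other scalings of TPM (log2 0.79 to 0.82, adjusted p = 0.0281 to 0.0468) and in limma-voom on the recovered reads (0.81, adjusted p = 0.0251), whereas the TG call, not the size of the difference, was lost when any of 5 of its 6 libraries was left out (log2 1.04 to 1.23, adjusted p = 0.0788 to 0.153) and with the 2 TG groups fitted alone (adjusted p = 0.156). The difference over both genotypes was called with each of the 12 libraries left out in turn (log2 0.89 to 1.05, adjusted p = 0.00138 to 0.0101).

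Some marker levels moved with time as well. The summed level of 5 red cell genes was 2959, 4565 and 145 TPM in TG ZT12 and 1526, 4257 and 176 TPM in WT ZT12, against 110 to 156 TPM in TG ZT0 and 86.2 to 163 TPM in WT ZT0. Fbxo32 was at 54.5 and 36.6 TPM in the ZT12 libraries with the lowest red cell sums, TG replicate 3 and WT replicate 3. The part of red cells in the difference was not tested. The 4 fibro-adipogenic markers, all listed, summed to 386, 593 and 369 TPM in TG ZT12 and 493, 551 and 539 TPM in WT ZT12, against 388, 460 and 367 TPM in TG ZT0 and 396, 369 and 361 TPM in WT ZT0. The 2 times did not overlap in WT and overlapped in TG, and the part of these cells was not tested. The part of sequencing depth, which was higher at ZT12, was not tested.

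Trim63 (chromosome 4, 134315120 to 134329629, plus strand), a RING ubiquitin ligase of the sarcomere that acts on thick filament proteins, did not pass in any comparison. It stood at 126, 147 and 107 TPM in TG ZT12 and at 146, 131 and 116 TPM in WT ZT12. Its ZT0 levels were 129, 112 and 113 TPM in TG and 109, 108 and 118 TPM in WT. The groups overlapped in every comparison. The ZT12 minus ZT0 difference over both genotypes was 0.16 ± 0.09 (log2, SE; limma adjusted p = 0.838), with a 95% interval of 0.979 to 1.27-fold, which lies below the interval of Fbxo32.

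The ratio of Fbxo32 to Trim63 within a library does not depend on how libraries are scaled. It was 0.274, 0.391 and 0.509 in TG ZT12 and 0.312, 0.266 and 0.316 in WT ZT12, against 0.174, 0.183 and 0.168 in TG ZT0 and 0.213, 0.222 and 0.172 in WT ZT0. Every ZT12 library was above every ZT0 library. Averaged over genotypes the ratio was 1.79-fold higher at ZT12 (log2 difference 0.84; two-sided exact permutation of time labels within genotype, p = 0.005, the smallest that 400 regroupings can give; 0.01 after Benjamini-Hochberg adjustment over 6 such tests of 3 gene pairs). The genotype difference of the ratio was 1.05-fold (exact permutation p = 0.65). The 3 pairs were chosen after their values had been seen, so these p-values describe a pattern already noticed.

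**Figure D2:**
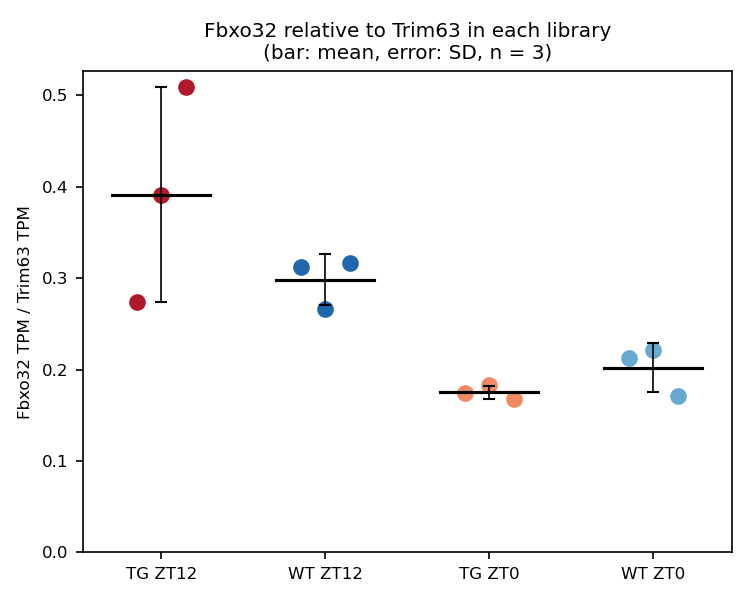
Fbxo32 TPM divided by Trim63 TPM (vertical axis, no unit) in each library, by group. Points are libraries, bars are means and error bars SD (n = 3 each). The 6 ZT12 libraries lie between 0.266 and 0.509 and the 6 ZT0 libraries between 0.168 and 0.222.

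Fbxo30 (MUSA1; chromosome 10, 11281330 to 11297969, plus strand), an F-box ligase subunit known from work in mice as a target restrained by BMP signalling, had the next smallest p with Foxo1. It stood at 2.20, 5.21 and 3.77 TPM in TG ZT12 and at 3.54, 4.20 and 3.31 TPM in WT ZT12, against 2.82, 2.39 and 1.99 TPM in TG ZT0 and 2.81, 2.44 and 2.47 TPM in WT ZT0. All WT ZT12 libraries were above all WT ZT0 libraries, and in TG replicate 1 of ZT12 overlapped the ZT0 libraries. The ZT12 minus ZT0 difference over both genotypes was 0.41 ± 0.15 (log2, SE; limma adjusted p = 0.375). Without TG ZT12 replicate 1 it was 0.52 (adjusted p = 0.0528), and without that library and WT ZT0 replicate 2 it was 0.52 with adjusted p = 0.0240, so the call on Fbxo30 rests on which libraries enter. The fit without both libraries called 464 genes for time, 78.7% of them higher at ZT12, against 106 and 39.6% in the main fit. The lowest library of Fbxo30 held 145 reads (95% Poisson interval 122 to 171, counting error only).

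Fbxo31, an F-box protein first known for the turnover of cyclin D1, stood at 26.5, 47.8 and 39.7 TPM in TG ZT12 and at 47.0, 41.0 and 36.6 TPM in WT ZT12. Its levels at ZT0 were 44.0, 48.3 and 37.5 TPM in TG and at 39.25, 51.3 and 43.1 TPM in WT. The groups overlapped in every comparison, and neither the time difference (-0.16 ± 0.13, log2, SE) nor the genotype difference (-0.10 ± 0.13) passed in limma (adjusted p = 0.988 and 0.929). Fbxo21 (SMART), a FoxO-dependent F-box ligase subunit in mouse muscle, ranged from 2.11 to 4.52 TPM in TG ZT12, from 2.48 to 3.47 TPM in WT ZT12, from 3.00 to 3.82 TPM in TG ZT0 and from 3.21 to 4.975 TPM in WT ZT0. These ranges overlapped as well, with a time difference of -0.17 ± 0.15 and a genotype difference of -0.06 ± 0.15 (log2, SE; limma adjusted p = 0.988 and 0.942).

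Cblb, a ligase that promotes the loss of IRS1 in unloaded muscle and also restrains T cell activation, stood at 1.125, 3.00 and 2.66 TPM in TG ZT12 and at 2.05, 2.63 and 2.07 TPM in WT ZT12. In ZT0 muscle it stood at 2.19, 1.99 and 1.785 TPM in TG and at 1.68, 5.46 and 2.34 TPM in WT. The highest value, 5.46 TPM, belongs to WT ZT0 replicate 2, the library with 739 TPM of Cd74, and the groups overlapped. That library was the highest for 6 of the 10 genes, and the part of Cd74-bearing cells in the level of Cblb was not tested. The ZT12 minus ZT0 difference was -0.09 ± 0.21 (log2, SE; limma adjusted p = 0.991), and it was 0.09 without WT ZT0 replicate 2, so no direction can be given.

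Foxo1 (chromosome 3, 52268337 to 52350109, plus strand), the FoxO factor whose overexpression in muscle causes atrophy in mice, was lower at ZT12 in value but did not pass. It stood at 2.62, 4.55 and 3.54 TPM in TG ZT12 and at 3.67, 3.95 and 3.63 TPM in WT ZT12. At ZT0 it stood at 6.32, 5.17 and 4.55 TPM in TG and at 4.44, 13.5 and 5.20 TPM in WT. All WT ZT12 libraries were below all WT ZT0 libraries, and in TG the groups touched at 4.55 TPM. The ZT12 minus ZT0 difference over both genotypes was -0.61 ± 0.21 (log2, SE), 0.656-fold with a 95% interval of 0.478 to 0.899 (limma adjusted p = 0.347). Without WT ZT0 replicate 2 the difference was -0.40 (adjusted p = 0.190) and, within WT alone, -0.29 in place of -0.73. After median-of-ratios scaling the difference over both genotypes was -0.58 (limma adjusted p = 0.0658), still not called. The part of the Cd74-bearing cells of that library in the level of Foxo1 was not tested.

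Foxo3, the FoxO factor that drives autophagy and ligase genes in denervated or fasted muscle, stood at 0.686, 3.87 and 3.405 TPM in TG ZT12 and at 3.10, 3.03 and 2.29 TPM in WT ZT12. The ZT0 levels were 3.17, 4.60 and 1.51 TPM in TG and at 3.29, 8.76 and 3.35 TPM in WT. The lowest value rests on 36 reads in TG ZT12 replicate 1 (95% Poisson interval 25.2 to 49.8) and the highest on WT ZT0 replicate 2. The time difference was -0.41 ± 0.30 (log2, SE; limma adjusted p = 0.975), and it was 0.03 without those 2 libraries. Foxo4 stood at 35.9, 65.6 and 58.5 TPM in TG ZT12 and at 68.6, 54.5 and 49.7 TPM in WT ZT12, against 64.7, 62.9 and 48.2 TPM in TG ZT0 and 54.2, 68.8 and 55.6 TPM in WT ZT0. Its groups overlapped in every comparison, with a time difference of -0.11 ± 0.14 and a genotype difference of -0.08 ± 0.14 (log2, SE; limma adjusted p = 0.988 and 0.929). Thus none of the FoxO transcripts passed for time while Fbxo32 did. Within a library the ratio of Fbxo32 to Foxo1 was 13.7 ± 1.46 in TG ZT12 and 10.4 ± 1.85 in WT ZT12, and 3.90 ± 0.325 in TG ZT0 and 3.63 ± 1.74 in WT ZT0 (SD, n = 3 each), 3.32-fold higher at ZT12 (two-sided exact permutation p = 0.005, 0.01 over the 6 tests). The ratio of Trim63 to Foxo1 was 1.85-fold higher at ZT12 (two-sided exact permutation p = 0.005, 0.01 over the 6 tests). Trim63 itself did not pass for time, so a higher ratio to Foxo1 was not particular to Fbxo32.

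Mstn, the gene of myostatin (chromosome 1, 53061640 to 53068079, plus strand), stood at 22.6, 28.4 and 39.0 TPM in TG ZT12 and at 23.5, 22.2 and 23.9 TPM in WT ZT12. At ZT0 it stood at 30.9, 30.9 and 28.5 TPM in TG and at 31.0, 24.4 and 27.8 TPM in WT. WT ZT12 was the tightest and lowest group, below every WT ZT0 library, while TG ZT12 spread over both. Over both times Mstn averaged 30.03 ± 5.32 TPM in TG and 25.5 ± 3.29 TPM in WT (SD, n = 6 each). It had the smallest genotype p of the 10 genes, with a TG minus WT difference of 0.22 ± 0.11 (log2, SE; 95% interval 0.982 to 1.38-fold, limma adjusted p = 0.929). At ZT12 that difference was 0.32, and it was 0.50 without TG ZT12 replicate 1 (limma adjusted p = 1.00), so it did not pass in either fit. After median-of-ratios scaling the difference over both times was 0.32 (log2, 95% interval 0.03 to 0.60), also not called (limma adjusted p = 0.999).

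For genotype, 0 of the 10 members passed the adjusted threshold in limma at ZT12, at ZT0 or over both times, and 0 had an unadjusted p under 0.05. None of the 10415 genes tested was called in these 3 comparisons (0% in each), and 99, 117 and 166 genes had an unadjusted p under 0.05. In limma-voom on the recovered reads 0 members were called as well, with 2, 0 and 1 at an unadjusted p under 0.05. The interaction of genotype and time also called 0 members and 0 genes, with 0 members and 69 genes at an unadjusted p under 0.05. The median TG minus WT difference of all genes was -0.07 at ZT12 and -0.10 at ZT0 (log2), a shift that scaling by median of ratios removed, and the medians of the 10 members were -0.05 and -0.10. The 95% intervals over both times for TG over WT were Fbxo32 0.871 to 1.30-fold, Trim63 0.886 to 1.15-fold, Foxo4 0.761 to 1.17-fold and Foxo3 0.496 to 1.21-fold. At ZT12 alone the interval of Fbxo32 was 0.934 to 1.61-fold, and without TG ZT12 replicate 1 its difference was 0.52 (log2, 95% interval 0.23 to 0.81, limma adjusted p = 1.00). With all libraries and median-of-ratios scaling the ZT12 difference of Fbxo32 was 0.38 (log2, 95% interval 0.09 to 0.67), also not called. In the authors' deposited table the log2 fold changes of the 10 genes, TG over WT, ran from -0.03 to 0.12, the highest being Fbxo32 at ZT12 (p = 0.237, adjusted p = 1.00). These come from another fit, and their sizes cannot be set beside the limma differences. Foxo3 at ZT0 was -0.02 there and -0.54 in limma, and Fbxo32 at ZT12 was 0.12 and 0.29. Trim63 at ZT0 was 0.09 and 0.08.

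For time, the groups of 5 of the 10 members did not overlap in WT (Fbxo32 and Fbxo30 higher at ZT12, and Foxo1, Foxo3 and Mstn lower), where 10.8% of all genes did not overlap. In TG this held for 1 of the 10, Fbxo32, against 7.08% of all genes. The members did not share a direction: over both genotypes 3 of the 10 had a positive ZT12 minus ZT0 difference and 7 a negative one, with a median of -0.12 (log2) against -0.03 for all genes tested.

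**Figure D3:**
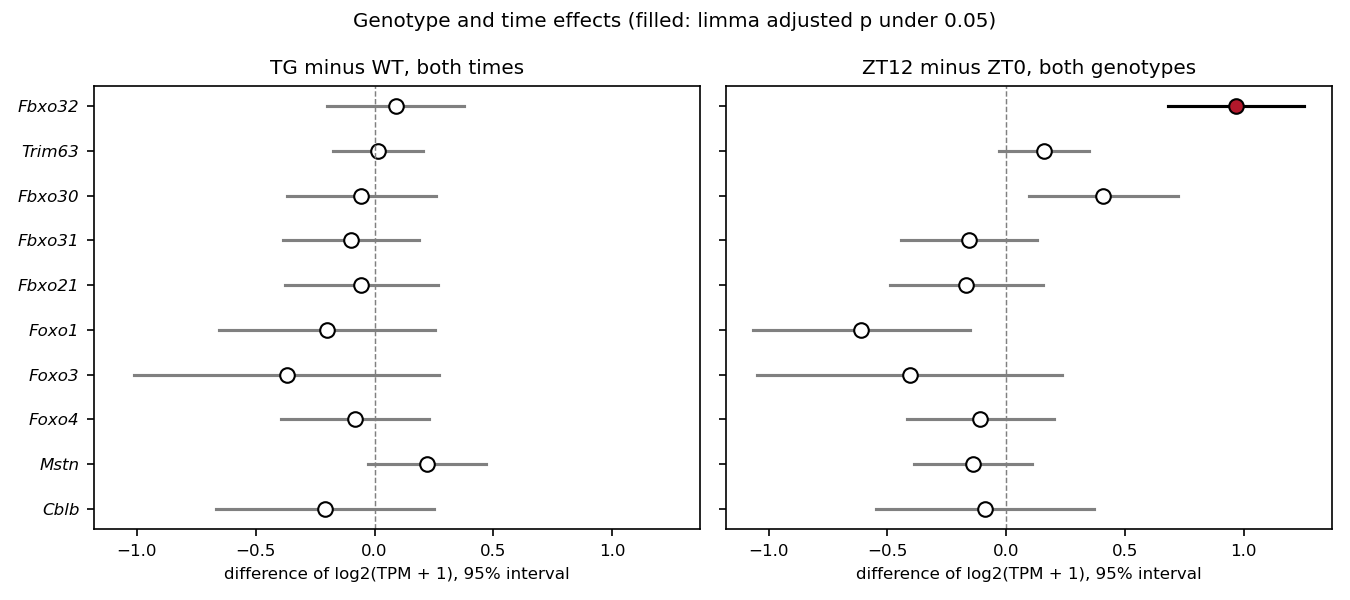
Differences of log2(TPM + 1) (horizontal axes) for the 10 genes, TG minus WT over both times (left) and ZT12 minus ZT0 over both genotypes (right), from the additive limma model. Points are estimates and lines 95% intervals, and a filled point passed an adjusted p under 0.05. Fbxo32 at 0.97 in the time panel is the one filled point, and every genotype interval holds 0.

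**Figure D4:**
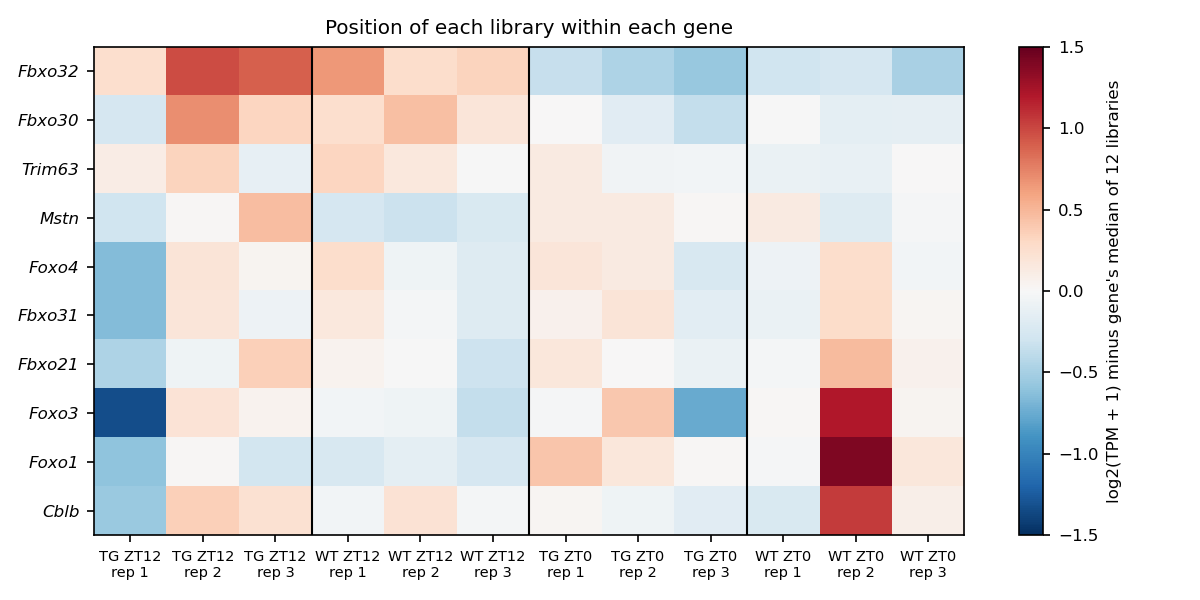
Log2(TPM + 1) of each gene (rows) in each library (columns) minus the gene's median over the 12 libraries, with red above and blue below the median. Fbxo32 separates the 6 ZT12 from the 6 ZT0 libraries, TG ZT12 replicate 1 is low in 8 of the 10 genes, and WT ZT0 replicate 2 is high for Foxo1, Foxo3 and Cblb.

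Several pairs of members varied together, and only a part of them is given here. Others that passed included Fbxo21 with Foxo3 (Pearson r = 0.82) and Foxo3 with Cblb (0.86; permutation p = 0.0178 adjusted for each). Without TG ZT12 replicate 1 and WT ZT0 replicate 2 their r was 0.42 and 0.39. By rank they did not pass (Spearman rho = 0.68 and 0.61; permutation p = 0.119 and 0.162 adjusted). After median-of-ratios scaling their r was 0.52 and 0.75. Levels of all genes also shifted between libraries, with a median deviation of -0.27 (log2) in TG ZT12 replicate 1 and 0.30 in WT ZT0 replicate 2. The share of other gene pairs with such correlations was not computed. Fbxo31 and Foxo4 ran together over the 12 libraries (Pearson r = 0.96, Spearman rho = 0.92; permutation p = 0.0009 and 0.0018 adjusted over 45 pairs), with r = 0.90 without the 2 libraries farthest from the median of Fbxo31, and r = 0.89 after median-of-ratios scaling. Within a time r was 0.99 at ZT12 and 0.92 at ZT0 (n = 6 each, exact permutation p = 0.0714 and 0.113 adjusted over 45 pairs). Foxo3 ran with Fbxo31 (r = 0.89, rho = 0.82; permutation p = 0.00112 and 0.0439 adjusted), with r = 0.53 after that scaling. Foxo1 and Cblb gave r = 0.80 (rho = 0.38; permutation p = 0.0418 and 0.447 adjusted) and -0.14 without TG ZT12 replicate 1 and WT ZT0 replicate 2, on which the relation rests. Foxo3 and Foxo4 gave r = 0.86 (rho = 0.75; permutation p = 0.00210 and 0.0760 adjusted), 0.72 without the same 2 libraries and 0.50 after median-of-ratios scaling. The levels of Fbxo32 at the 2 times did not overlap, so its relations to other members are given within each time. Fbxo32 and Fbxo30 were correlated within ZT12 (r = 0.63) and within ZT0 (r = 0.73) without passing (n = 6 each, exact permutation p = 0.299 and 0.230 adjusted).

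Among 6125 genes of at least 5 TPM, genes whose log2 levels over the 12 libraries were among the most like Fbxo32 were Col5a3 (Pearson r = 0.94) and Rnft1 (0.92). For Trim63 they were Ube2b (r = 0.85), an E2 ubiquitin-conjugating enzyme, Lrrc2 (0.84) and Alas2 (0.82), the erythroid enzyme of haem synthesis. For Foxo4 they were Neo1 (r = 0.99), Sptb (0.99) and Cmya5 (0.98), and for Fbxo31 Aldh6a1 (0.98), Sspn (0.97) and Abcb4 (0.97). For Foxo1 they were Fam78a (r = 0.96), Max (0.96) and Ik (0.95), for Foxo3 Caprin1 (0.98), Slc25a44 (0.97) and Lats2 (0.97), and for Cblb Trim26 (0.99), Cnot4 (0.98) and Nelfb (0.97). For Fbxo30 they were Rabgef1 (r = 0.97), Slc9a2 (0.95) and Dnaja4 (0.94), for Fbxo21 Crim1 (0.94), Ndrg3 (0.91) and Rnps1 (0.91), and for Mstn Mpp3 (0.83), Lrrfip1 (0.80) and Adssl1 (0.78). These likenesses describe 12 libraries that share depth and the 2 libraries that stand apart, and carry no test. The levels of Fbxo32 at the 2 times did not overlap. Its r over the 12 libraries thus cannot separate likeness within a time from a shared time difference.

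Of the other genes of the pathway, a FoxO target moved further than Fbxo32. In the list of FoxO target genes of muscle, 25 of 26 genes were tested and 1 was called higher at ZT12 over both genotypes, Pdk4, the kinase that holds back glucose oxidation. It stood at 71.8, 123 and 120 TPM in TG ZT12 and at 88.8, 141 and 97.8 TPM in WT ZT12, against 31.0, 21.8 and 31.6 TPM in TG ZT0 and 20.5, 29.5 and 39.2 TPM in WT ZT0. Every ZT12 library of Pdk4 was above every ZT0 library, as for 0.538% of all genes tested. The difference was 1.85 ± 0.18 (log2, SE; limma adjusted p = 0.000165), in a comparison in which 1.02% of all genes were called. The list's median was 0.04, against -0.03 for all genes, and 0 of its genes passed for genotype over both times (0 at an unadjusted p under 0.05). For time, 7 of the 25 had an unadjusted limma p under 0.05, against 765 of the 10415 genes tested. Besides Pdk4, Cited2 (0.65) and Cdkn1a (0.37) were higher at ZT12 in value without passing (limma adjusted p = 0.506 and 0.315). Ddit4 (-0.63), Tfeb (-0.27), Gadd45a (-0.27) and Eif4ebp1 (-0.19) were lower in value, also without passing (limma adjusted p = 0.525, 0.0957, 0.661 and 0.658). In value, these targets did not share a direction.

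The list of upstream regulators of FoxO had 21 of 22 genes tested and none called. The smallest time p belonged to subunits of PI3-kinase, which relays the insulin signal to Akt. Pik3ca, the catalytic subunit, averaged 9.87 ± 1.54 TPM at ZT12 and 6.76 ± 0.948 TPM at ZT0 (SD, n = 6 each), with a difference of 0.48 ± 0.12 (log2, SE; limma adjusted p = 0.0834). Pik3r1, the regulatory subunit, averaged 5.18 ± 1.61 TPM at ZT12 and 9.30 ± 2.68 TPM at ZT0, with a difference of -0.74 ± 0.21 (limma adjusted p = 0.159). Foxo6 averaged 6.91 ± 0.817 TPM at ZT12 and 8.81 ± 1.18 TPM at ZT0 (-0.31 ± 0.10, limma adjusted p = 0.321). Both PI3-kinase genes passed after median-of-ratios scaling.

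In the list of myostatin and activin signalling, 23 of 27 genes were tested and 1 was called lower at ZT12 over both genotypes, Acvr1b, a type I receptor (ALK4) of activins and myostatin. It stood at 6.60, 12.6 and 12.5 TPM in TG ZT12 and at 16.6, 12.6 and 11.4 TPM in WT ZT12, against 23.4, 25.9 and 17.6 TPM in TG ZT0 and 18.7, 27.4 and 20.5 TPM in WT ZT0. Every ZT12 library was below every ZT0 library (the share of all genes with this order is not given here). The difference was -0.86 ± 0.17 (log2, SE; limma adjusted p = 0.0290), in a comparison in which 1.02% of all genes were called. The call was lost, with an adjusted p between 0.0509 and 0.0872, when any of 5 libraries was left out (TG ZT0 replicates 1 and 2, replicate 3 of WT ZT0, replicates 2 and 3 of WT ZT12). Mstn, the ligand, had a difference of -0.14 ± 0.11 in the same fit. The list's median was 0.03, and 0 of its genes were called for genotype over both times (1 at an unadjusted p under 0.05).

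In the list of other atrophy-linked ubiquitin genes all 22 were tested and none was called. Fbxl22 (0.32 ± 0.10, limma adjusted p = 0.226) and Rnf115 (0.28 ± 0.10, limma adjusted p = 0.431) were higher at ZT12 in value without passing. The list's median time difference was -0.00423.

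**Figure D5:**
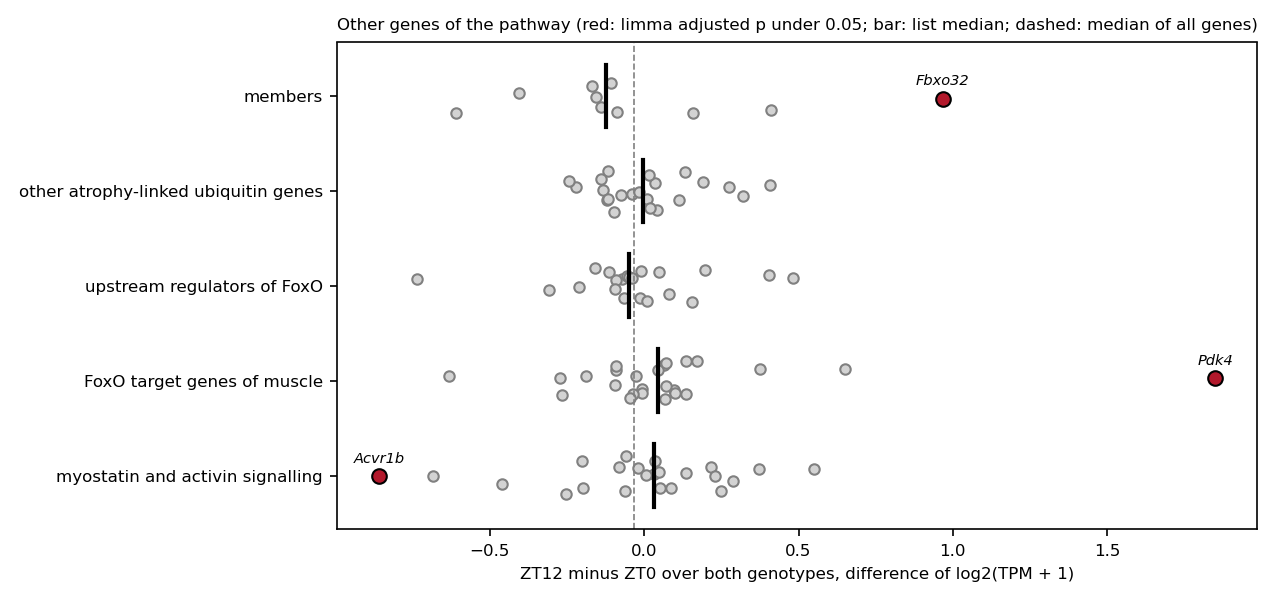
ZT12 minus ZT0 difference of log2(TPM + 1) over both genotypes (horizontal axis) for the 10 members and the tested genes of the 4 lists. Each point is a gene, black bars are list medians, the dashed line is the median of all genes tested, and red points passed a limma adjusted p under 0.05. Pdk4 (1.85), Fbxo32 (0.97) and Acvr1b (-0.86) are the 3 red points, and list medians lie between -0.12 and 0.04.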

How the data were processed

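Total RNA of gastrocnemius was selected for poly(A) and made into libraries with a kit that, as used per the labels, keeps no strand, so reads of overlapping antisense genes cannot be told apart. Per the submitters' processing notes, bcl2fastq, STAR, DESeq2 and HOMER (4.11.1) were used, with the build mm10. The deposited TPM values, made by the authors, were used as given. Transcript length in bases, and each gene's p-value (raw and adjusted) and log2 fold change, came from the authors' deposited tables for the 6 libraries of each time, per the file headers. Another 12 per-library columns of those tables, headed FPKM, were not used here. In WT ZT0 replicate 1 no listed gene is below 1.0 TPM.

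TPM times transcript length gave whole reads for 99.96 to 99.99% of values (within 0.1 read, judged under 500 reads), which gives the depth over the listed genes and the counts used by limma-voom. The main test was limma 3.58.1 (trend, R 4.3.3) on log2(TPM + 1) over the 12 libraries, for the 10415 genes that reached 1 TPM in 3 or more libraries, with 4 group means or with additive terms for genotype and time. Calls needed a Benjamini-Hochberg adjusted p under 0.05. The script was tested on simulated data. Correlation p-values used 100000 permutations, or all orders for 6 libraries. Alternatives were other scalings, filters and pseudocounts, limma-voom, a replicate block and left-out libraries. A count model had been planned only if raw counts were found, and none were.

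The members, gene lists and tests were chosen with earlier results of these data known. Named genes were the 10 members, Nfil3, in each list the called genes or else the 3 of smallest p, and the 3 genes most correlated with each member; some of these are not reported here. Python 3.11.15, numpy 2.4.6, pandas 2.3.3, scipy 1.17.1 and matplotlib 3.10.9 were used.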

Additional observations from a re-analysis of the deposited data

How the results depend on the processing

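No value of a member that was called changed sign under any of the 23 other settings. In WT the count of members called for time was 0, and it was 1 (Fbxo32) under median-of-ratios, upper-quartile and quantile scaling, in limma-voom, and with TG ZT12 replicate 1 and WT ZT0 replicate 2 both removed. In TG it was 1, and 0 with the 2 groups alone (Fbxo32 adjusted p = 0.156) or with the replicate block (0.0591). With 1 library left out at a time the counts ran from 0 to 1 in WT and from 0 to 1 in TG. Over both genotypes it was 1, and 2 (Fbxo32 and Fbxo30) without the 2 libraries that stand apart. Median-of-ratios scaling called 1 upstream regulator of FoxO for time in TG (Pik3ca) and 2 over both genotypes (Pik3ca and Pik3r1), where none had been called, and 1 gene of myostatin and activin signalling in TG (Acvr1b, 0 before) and 2 over both genotypes (Acvr1b and Smad7, 1 before). Of 1552 alternative values of single members, 1528 stayed on the same side of the call threshold, the uncalled ones among them moving by less than the residual SD, 10 uncalled ones moved by more, 7 passed newly and 7 no longer passed. The sign of an uncalled value was not part of that count: it differed in 118 values, over 43 of the 70 differences. Foxo3, TG minus WT at ZT12, was -0.20, and 0.29 without TG ZT12 replicate 1. Foxo1, TG minus WT at ZT0, was -0.32, and 0.12 without WT ZT0 replicate 2. Fbxo32, TG minus WT at ZT12, was 0.29, and 0.52 without TG ZT12 replicate 1. The causes were not tested.

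Over all genes, 12 were called for time in WT, against 43 to 56 under the other scalings and limma-voom, and 73 without the 2 libraries. The share of these calls that was higher at ZT12 was 16.7%, against 41.1 to 60.3% in those fits. In TG the count was 16, against 28 to 33 in the same fits, 71 without the 2 libraries and 3 with the 2 groups alone. Over both genotypes it was 106, against 217 to 233, and 464 without the 2 libraries, where 78.7% of calls were higher in place of 39.6%. With 1 library left out at a time the counts ran from 4 to 35 in WT, from 6 to 21 in TG and from 70 to 160 over both genotypes. The same replicate number was not shown to pair libraries. Over 18 pairs of the same number the correlation of their deviations ran from -0.35 to 0.29. Its median was 0.06, against -0.02 for pairs of different numbers. For 6 of the 12 libraries the mean correlation was highest with libraries of their own number. The replicate block changed no other member's call.

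The limits are 3 libraries per group, a depth that differs with time, and few reads for Foxo3, Cblb, Fbxo21 and Fbxo30. Levels of mRNA do not measure where FoxO proteins are or how much ligase protein is made.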
